A study of Homo sapiens with 9 samples.

Results

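The response of A673 cells to trichostatin A (TSA), a small molecule that blocks histone deacetylases, was measured against dimethyl sulfoxide (DMSO). The members were chosen by title alone: 4 of the 9 arrays in the series, of which 2 came from cells held in 100 nM TSA for 24 hours and 2 from cells held in 0.01% DMSO for 24 hours. A673 is an established Ewing sarcoma cell line with the EWS/FLI fusion gene, and all samples came from this line in the same serum-containing medium. Each difference was also checked against 2 arrays of cells transfected with 5 nM control siRNA for 48 hours. The labels do not name the target of that siRNA, nor do they say whether the TSA cells also received DMSO. Transfection and hours of treatment both separate the control siRNA arrays from the TSA and DMSO arrays, so their effects cannot be told apart. The remaining 3 arrays carried siRNAs against the histone methyltransferase EZH2 and entered the model only to estimate the spread, apart from 1 comparison at the end. The replicates are titled as biological ones without a statement that they were separate cultures, so each p-value measures only the spread between these samples.

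Histone deacetylases remove acetyl groups from histone tails and from many other proteins. Blocking them leaves chromatin more acetylated, and in many cell lines the cell cycle inhibitor CDKN1A is among the genes that then rise. A pair of regulated metabolic programmes recurs in the results. The sterol programme is driven by SREBP proteins, membrane-bound transcription factors that are released when cell sterol is low and that switch on the enzymes of cholesterol and fatty acid synthesis. The ATF4 programme is switched on when amino acids are scarce or when unfolded proteins build up, and it raises enzymes of serine, asparagine and cysteine metabolism. In Ewing sarcoma the EWS/FLI fusion activates a set of genes that includes NKX2-2 and holds down genes of mesenchymal and neuronal character.

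Signals are given on the MAS5 scale of the deposited table, and differences as log2(signal + 25.1), which understates the change of dim genes. The arrays had median signals of 125 to 159 and trimmed means of 500.1 to 500.2. The number of arrays limits the precision. Spiked hybridisation controls averaged 10.1 (TSA) and 10.2 (DMSO) on the log2 scale in replicate 1 but 10.5 on both arrays of replicate 2. The ratio of 3′ to 5′ ACTB signal was higher on each TSA array (1.25 and 1.44) than on the DMSO array of the same number (1.14 and 1.29), and its part in the results was not tested. The GAPDH ratio was 0.846 and 1.02 with TSA against 0.997 and 0.968 with DMSO, lower in replicate 1 and higher in replicate 2. All 7 listed Ewing sarcoma markers on the array were above the signal filter, and their summed signal was 34998 and 36763 with TSA against 41328 and 37525 with DMSO. Some markers of blood (such as PTPRC and LYZ), epithelium (EPCAM, CDH1) and endothelium (CDH5, VWF) stayed below the filter. Others passed it: 6 of 9 blood genes (CD3D, CD3E, CD53, CD79A, HBB and LAPTM5), 3 of 10 epithelial genes (ELF3, KRT8 and KRT18) and 2 of 8 endothelial genes (ENG and PECAM1). The summed signals with TSA and with DMSO were 842 and 1132 against 1039 and 940 for blood, 7051 and 5605 against 7815 and 5600 for epithelium, and 559 and 564 against 612 and 455 for endothelium. The summed signal of 9 fibroblast markers was 15745 and 7127 with TSA against 10249 and 9625 with DMSO, carried mostly by the collagen gene COL1A2. Of these 9, 6 passed the filter, among them THY1 (981 and 1138 with TSA), DCN and PDGFRB. FAP, LUM and PDGFRA stayed below it, FAP at 7.05 and 7.31 with TSA.

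No gene passed the threshold in the comparison of TSA with DMSO. Of 9100 genes tested with limma, 0 (0%) passed 0.05 after adjustment, with 1.00 as the smallest adjusted value. At an unadjusted limma p under 0.05 stood 238 genes (2.62%), of which 116 were higher with TSA (1.27%) and 122 lower (1.34%). Scaling each array to the same median turned that split into 66 higher and 164 lower. The count depended on single arrays: it was 759 without TSA replicate 2 and 350 without DMSO replicate 2, but 106 without DMSO replicate 1. With arrays of 2 against 2, an exact permutation test cannot go below p = 0.333. In bulk samples fewer cells of a type and less RNA per cell cannot be told apart.

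The differences of the replicate numbers had little in common. At least 2-fold higher with TSA were 293 genes in replicate 1 (3.22%) and 90 in replicate 2 (0.989%), but only 10 in both (0.110%). At least 2-fold lower were 253 in replicate 1 (2.78%) and 108 in replicate 2 (1.19%), with 11 in both (0.121%). Both differences had the same sign in 4654 genes (51.1%). Across all 9100 genes, which are not independent replicates, Pearson's r between the replicate 1 and replicate 2 differences was 0.05. The plot of one difference against the other shows a round cloud, with the sterol and ATF4 genes leaning to its lower left.

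**Figure D1:**
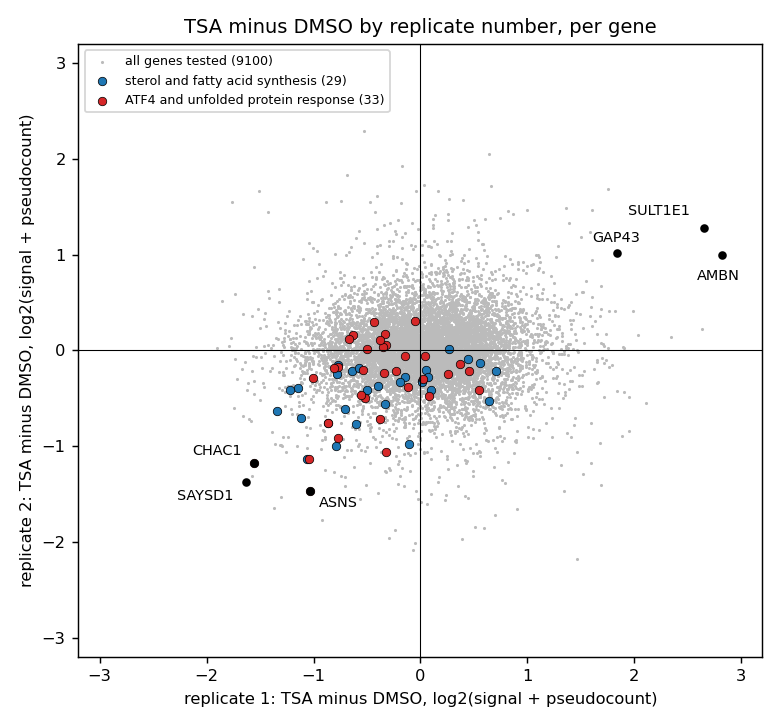
Each grey point is 1 of the 9100 genes, placed by its TSA minus DMSO difference on the log2(signal + pseudocount) scale in replicate 1 (x axis) and replicate 2 (y axis). Blue points are the 29 sterol and fatty acid genes and red points the 33 ATF4 and unfolded protein response genes, while labels mark 6 genes far from the origin in both replicate numbers, such as SULT1E1 at 2.66 and 1.28 and ASNS at −1.04 and −1.47.

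The check against the control siRNA arrays kept 42 genes (0.462%) that differed at least 2-fold from DMSO and lay outside all 4 control arrays, 24 of them higher with TSA (0.264%) and 18 lower (0.198%). Against the DMSO arrays alone the counts were 35 (0.385%) and 31 (0.341%). Dim genes held most of the higher ones. Among the 2275 genes with the lowest mean signal (53.3 to 145) 16 were higher and 8 lower, and among the 2275 brightest (at least 1020) 0 were higher and 4 lower. A second probe set past the filter existed for 5 of the 42 genes. Of those 7 further probe sets, 6 had the same sign, 1 reached 2-fold, and the median difference in the direction of the gene was 0.16. Leaving out 1 TSA or DMSO array loosens this rule, since fewer arrays then have to lie apart. Counts made without 1 of those arrays therefore cannot be set beside the 24 and 18.

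SULT1E1, the oestrogen sulfotransferase, gave the largest difference of the 12 higher genes named. Its signal was 697 and 359 with TSA (replicates 1 and 2) against 89.6 and 133 with DMSO and 53.6 and 99.5 with the control siRNA. Both TSA arrays stood above all 4 controls, by 1.97 over DMSO (SE 0.48, limma adjusted p = 1.00). AMBN, which encodes the enamel matrix protein ameloblastin, had signals of 1139 and 369 with TSA against 139 and 172 with DMSO and 96.6 and 70.7 with the control siRNA. Its groups did not overlap, but the TSA arrays were far apart, and the difference was 2.82 in replicate 1 and 1.00 in replicate 2.

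GAP43, a growth cone protein of neurons, gave 562 and 590 with TSA, 139 and 279 with DMSO, and 173 and 175 with the control siRNA. The TSA arrays were alike and the DMSO arrays were not, so the difference of 1.43 (SE 0.31, limma adjusted p = 1.00) was 1.84 in replicate 1 and 1.02 in replicate 2. Its further probe sets gave 0.63 and 1.36. GAREM1, an adaptor of growth factor signalling, stood at 1217 and 532 with TSA against 490 and 257 with DMSO and 389 and 351 with the control siRNA. The replicate 1 arrays were the brighter ones in both 24-hour groups, and the differences of 1.27 and 0.98 were close to each other.

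The other higher genes were dim. ARHGEF28, a guanine nucleotide exchange factor, had signals of 105 and 123 with TSA against 18.2 and 37.8 with DMSO and 17.2 and 29.7 with the control siRNA. MALL, a protein of membrane rafts, had 107 and 95.9 with TSA, 18.4 and 18.9 with DMSO and 28.8 and 54.0 with the control siRNA. In both genes the TSA arrays stood well clear of all 4 controls. PRKCE, a protein kinase C, stood at 104 and 132 with TSA, 27.7 and 48.4 with DMSO, and 74.2 and 66.7 with the control siRNA. HTR1E, a serotonin receptor, stood at 76.6 and 59.5 with TSA, 13.8 and 8.56 with DMSO, and 34.2 and 32.1 with the control siRNA. In these genes the DMSO arrays were the lowest and the control siRNA arrays lay between.

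In 3 further genes at least 1 control lay close to TSA or the probe sets disagreed. PCOTH had signals of 101 and 88.7 with TSA, 19.6 and 24.9 with DMSO, and 72.3 and 82.0 with the control siRNA, a difference of 1.34 from DMSO but 0.23 from the control siRNA. KCNJ5, an inwardly rectifying potassium channel, had 232 and 182 with TSA, 59.7 and 82.3 with DMSO, and 124 and 143 with the control siRNA. AGRP, an appetite peptide, had 215 and 125 with TSA, 13.7 and 103 with DMSO, and 71.4 and 93.1 with the control siRNA. Its difference was 2.63 in replicate 1 and 0.22 in replicate 2, so 1 low DMSO array made most of it. For KCNJ5 the other probe sets gave 0.12, 0.11 and −0.16, which did not repeat its difference of 1.27. SH3D21 completed the 12 with a difference of 1.14.

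Among the 12 lower genes, SAYSD1 had the smallest p of all genes. This gene, whose product is a membrane protein of the endoplasmic reticulum, gave 32.4 and 35.7 with TSA, 153 and 133 with DMSO, and 143 and 131 with the control siRNA. DMSO and control siRNA arrays were alike and the TSA arrays stood far below them, by −1.50 (SE 0.32, limma adjusted p = 1.00). HEBP1, a haem-binding protein, was also level in both controls. Its signal was 506 and 416 with TSA, 1081 and 872 with DMSO, and 883 and 1066 with the control siRNA. LIAS, the lipoic acid synthase of mitochondria, stood at 73.3 and 27.8 with TSA, 161 and 155 with DMSO, and 177 and 147 with the control siRNA. Its TSA arrays differed from each other, with −0.92 in replicate 1 and −1.77 in replicate 2.

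PAQR5, a membrane progestin receptor, gave 61.1 and 37.2 with TSA, 187 and 155 with DMSO, and 143 and 109 with the control siRNA. FAM162A, a mitochondrial protein of the hypoxia response, gave 1093 and 1923 with TSA, 3517 and 3102 with DMSO, and 2277 and 2566 with the control siRNA. Its difference was −1.66 in replicate 1 and −0.68 in replicate 2, and its dimmer probe set gave −0.07. PPP1R1A, which inhibits a protein phosphatase and is a known EWS/FLI target, gave 887 and 1394 with TSA, 3027 and 2121 with DMSO, and 2464 and 3209 with the control siRNA. In all 3 genes both TSA arrays lay below every control.

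In 8 of the 12 lower genes, PAQR5 and FAM162A among them, the DMSO arrays stood above the control siRNA arrays, so that the distance of TSA from the control siRNA was smaller than its distance from DMSO. PCYT2, the rate-limiting enzyme of phosphatidylethanolamine synthesis from ethanolamine, gave 416 and 402 with TSA, 1061 and 825 with DMSO, and 564 and 560 with the control siRNA. ACOT13, an acyl-CoA thioesterase, gave 490 and 615 with TSA, 1195 and 1173 with DMSO, and 693 and 642 with the control siRNA. Its difference was −1.07 from DMSO and −0.27 from the control siRNA. GSTT1, a glutathione transferase, gave 43.0 and 34.8 with TSA, 151 and 162 with DMSO, and 78.8 and 51.5 with the control siRNA. QDPR, which regenerates tetrahydrobiopterin, gave 370 and 500 with TSA, 1161 and 848 with DMSO, and 619 and 702 with the control siRNA. CHAC1, with the same order, belongs to the ATF4 genes below. DCAF1, a substrate receptor of an E3 ubiquitin ligase, completed the 8 with −1.44.

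**Figure D2:**
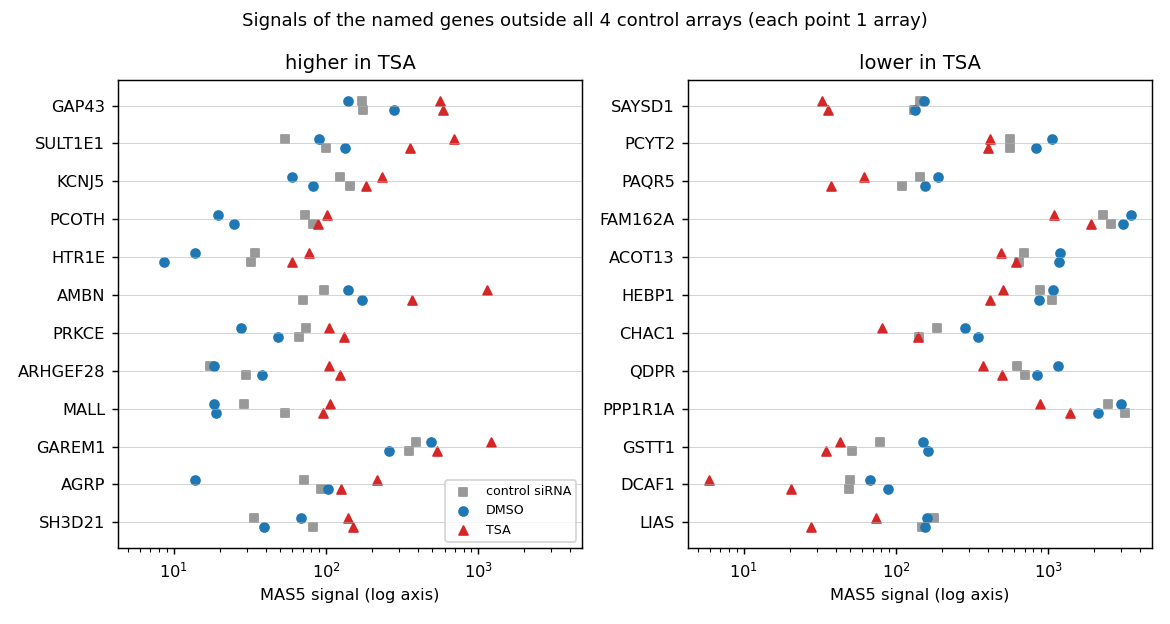
Each point is the MAS5 signal of 1 array (log axis) for the 12 higher (left) and 12 lower (right) named genes, ordered by p, with replicate 1 drawn above replicate 2 in every row. Triangles stand for TSA, circles for DMSO and squares for the control siRNA; the TSA triangles lie beyond all 4 controls in each row, widely for SAYSD1 (32.4 and 35.7) and narrowly for PCOTH (101 and 88.7 against 82.0 and less).

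Other genes differed from DMSO at least 2-fold but not from the control siRNA, since the DMSO arrays were the ones that stood apart. CPA3, a mast cell carboxypeptidase, gave 66.5 and 98.6 with TSA and 78.1 and 91.2 with the control siRNA, against 10.5 and 19.0 with DMSO. The difference was 1.43 from DMSO and −0.04 from the control siRNA. SLC6A3, PROZ, ENTPD1 and MAGEC1 were of the same kind, with differences from DMSO of 1.07, 1.05, 1.00 and 1.04 and differences from the control siRNA of −0.28 to 0.43. The other ENTPD1 probe sets differed in sign, with 0.64 and −0.72 from DMSO. BLVRB, a biliverdin reductase, gave 509 and 489 with TSA and 388 and 364 with the control siRNA, against 1300 and 994 with DMSO. ALOX15B, a lipoxygenase, gave 48.7 and 44.1 with TSA and 17.7 and 29.7 with the control siRNA, against 155 and 104 with DMSO. RAB33A differed by −1.04 from DMSO and by 0.24 from the control siRNA. For these genes the 2-fold size was seen only against DMSO, and PROZ, ENTPD1 and MAGEC1 kept the sign against the control siRNA (0.43, 0.16 and 0.12).

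Most sterol and fatty acid synthesis genes had lower signals with TSA than with DMSO, without any passing the adjusted threshold. Of 29 tested, 24 differences were negative and 5 positive, whereas 53.7% of all genes were positive. At an unadjusted limma p under 0.05, 8 stood lower (27.6%, against 1.34% of all genes) and 0 higher. Among the 2275 brightest genes tested, 58 stood lower and 21 higher at that threshold. The list was chosen with earlier results of these data known, so its share is a description and not a test. The median difference was −0.43 (all genes 0.03), with −0.40 in replicate 1 and −0.37 in replicate 2. In 19 of the 29 genes the difference was negative in both replicate numbers, as in 23.1% of all genes, and 17 lay below both DMSO arrays, as did 13.1% of all genes. Without DMSO replicate 1 the count at the unadjusted threshold was 5, and with the mean of DMSO and control siRNA as the control it was also 5.

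The enzymes that build the isoprenoid precursors showed it at several steps. ACAT2, which makes acetoacetyl-CoA, gave 1982 and 3576 with TSA, 4415 and 4709 with DMSO, and 3734 and 3766 with the control siRNA. IDI1, the isopentenyl diphosphate isomerase, gave 3016 and 4145 with TSA, 7046 and 5545 with DMSO, and 6181 and 4168 with the control siRNA. FDPS, which makes farnesyl diphosphate, gave 3310 and 2440 with TSA, 6048 and 4149 with DMSO, and 3355 and 1809 with the control siRNA. ACAT2 and IDI1 lay below all 4 controls, IDI1 by 4145 against 4168 at the nearest, while FDPS lay below DMSO and within the control siRNA range. The differences from DMSO were −0.77 (SE 0.29), −0.82 (SE 0.28) and −0.81 (SE 0.32). MVD, the mevalonate diphosphate decarboxylase, followed with −0.69 and HMGCS1, which makes HMG-CoA, with −0.43.

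Enzymes that turn lanosterol into cholesterol were lower too. EBP, a sterol isomerase, gave 2130 and 2175 with TSA, 4662 and 3575 with DMSO, and 3022 and 2510 with the control siRNA. Both TSA arrays were below all 4 controls, by −0.92 from DMSO (SE 0.25, limma adjusted p = 1.00), and its other probe sets gave −0.74 and −0.38. ERG28, a scaffold of the sterol demethylation enzymes, gave 1368 and 1598 with TSA, 3513 and 2500 with DMSO, and 2243 and 2838 with the control siRNA. It too lay below all 4 controls, by −0.99 from DMSO, and a second bright probe set gave −1.17. A dim ERG28 probe set gave 0.73 (55.1 and 7.73 with TSA, 4.62 and 7.03 with DMSO). SC5D, the sterol desaturase, gave 1457 and 2093 with TSA, 2393 and 3216 with DMSO, and 2795 and 2718 with the control siRNA. Its dimmer probe set gave −0.17, with TSA and DMSO arrays that overlapped. TM7SF2, a sterol reductase, had a difference of −1.10 from DMSO, and its TSA array of replicate 1 (938) was above both control siRNA arrays (876 and 889).

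The regulators of the pathway gave mixed values. INSIG1, which holds SREBP back in the endoplasmic reticulum and is itself an SREBP target, gave 1957 and 1400 with TSA, 3406 and 2816 with DMSO, and 1347 and 1747 with the control siRNA. It was lower than DMSO by −0.89 (SE 0.26), and DMSO was higher than the control siRNA by 1.00, so TSA lay at the control siRNA level. SREBF1 and SREBF2, which encode the SREBP proteins, differed by 0.22 (95% interval −0.51 to 0.94) and 0.25 (−0.60 to 1.10), and SCAP, their escort, by 0.14. The fatty acid genes were split: FASN had −0.45, while SCD, ACLY and ACACA had −0.15, −0.10 and 0.05. Against the control siRNA the median of the 29 genes was −0.11 with TSA (all genes 0.09) and 0.28 with DMSO (all genes 0.05). In 12 of them both DMSO arrays stood above both control siRNA arrays, as in 21.3% of all genes, and 7 had both TSA arrays below all 4 controls, as in 4.47% of all genes.

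The promoters of EBP and FDPS are shown because these members stand for the part of the list below all controls and the part below DMSO only. Sequences are from RefSeq on GRCh38.p14, from 250 bases before to 50 bases after the gene start, written on the gene's strand. Capitals mark matches on either strand to GGGCGG (a GC box) and CCAAT (an NF-Y type box), which do not overlap here. EBP lies at chrX:48521558-48521857 on the plus strand, with GC box letters starting 101 bases before the start and CCAAT letters at 191, 70 and 30. FDPS lies at chr1:155308616-155308915 on the plus strand, with GC box letters at 22 and CCAAT letters at 176, 122 and 51.
EBP: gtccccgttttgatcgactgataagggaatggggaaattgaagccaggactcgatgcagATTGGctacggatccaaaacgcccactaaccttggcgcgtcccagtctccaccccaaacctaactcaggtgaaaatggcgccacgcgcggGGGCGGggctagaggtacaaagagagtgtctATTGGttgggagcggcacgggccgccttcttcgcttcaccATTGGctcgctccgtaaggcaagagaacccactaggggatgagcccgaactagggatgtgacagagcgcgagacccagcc
FDPS: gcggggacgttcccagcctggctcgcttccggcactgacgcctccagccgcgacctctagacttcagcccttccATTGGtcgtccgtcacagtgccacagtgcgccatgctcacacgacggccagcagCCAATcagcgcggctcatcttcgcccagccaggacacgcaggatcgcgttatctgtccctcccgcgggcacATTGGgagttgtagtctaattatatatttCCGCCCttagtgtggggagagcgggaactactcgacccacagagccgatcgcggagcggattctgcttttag

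A promoter was found for 26 of the 29 sterol genes, of which 17 (65.4%) held CCAAT and 23 (88.5%) GGGCGG. Among all tested genes with a promoter in the table (7468) the shares were 37.6% and 68.1%, and among all 27305 promoters of the same length 35.7% and 44.6%. The sterol element letters TCACNCCAC were found in 1 of the 26, SREBF2, and in 1.10% of tested genes. These matches describe letters in a window and say nothing on binding.

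ATF4 and unfolded protein response genes were the other list with most members lower. Of 33 tested, 28 differences were negative and 5 positive, whereas 53.7% of all genes were positive. At an unadjusted limma p under 0.05, 7 stood lower (21.2%, against 1.34% of all genes) and 0 higher, with none at an adjusted p under 0.05. This list too was chosen with earlier results of these data known, so its share is a description and not a test. The median difference was −0.24 (all genes 0.03), with −0.38 in replicate 1 and −0.22 in replicate 2. In both, 17 genes were negative, as were 23.1% of all genes. The count was 3 without DMSO replicate 1, 4 without the trend option, and 1 with the mean of DMSO and control siRNA as the control. The DMSO arrays stood above the control siRNA arrays in 18 of the 33 genes, as in 21.3% of all genes, with a median difference of 0.29, whereas the TSA arrays differed from the control siRNA by a median of 0.07. Both TSA arrays lay below both DMSO arrays in 15 of the 33 genes, as in 13.1% of all genes, and below all 4 controls in 4, as in 4.47% of all genes.

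Members with roles in amino acid and carbon metabolism are given first. ASNS, the asparagine synthetase, gave 1596 and 907 with TSA, 3302 and 2558 with DMSO, and 1606 and 804 with the control siRNA. TSA and control siRNA arrays were nearly equal within each replicate number and DMSO stood above both, so the difference was −1.25 from DMSO (SE 0.36, limma adjusted p = 1.00) and 0.08 from the control siRNA. PCK2, the mitochondrial PEP carboxykinase, gave 354 and 215 with TSA, 754 and 500 with DMSO, and 240 and 180 with the control siRNA. CTH, which makes cysteine from cystathionine, gave 525 and 375 with TSA, 664 and 811 with DMSO, and 301 and 395 with the control siRNA. In both, TSA lay between DMSO and the control siRNA on the means, with differences from DMSO of −1.09 and −0.69.

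Enzymes of the serine pathway belong to the same list. PSAT1, the phosphoserine aminotransferase, gave 2244 and 1736 with TSA, 4111 and 2946 with DMSO, and 3427 and 1757 with the control siRNA. SHMT2, which passes the serine carbon to folate, gave 3681 and 3584 with TSA, 5425 and 4951 with DMSO, and 4282 and 4276 with the control siRNA. SHMT2 was below all 4 controls although its difference was only −0.51 (SE 0.21), because its replicates were close. PHGDH, the first enzyme of the pathway, had −0.51 and MTHFD2 had −0.37.

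CHAC1, which degrades glutathione, was the ATF4 gene with the largest difference. Its signal was 80.3 and 139 with TSA, 285 and 344 with DMSO, and 186 and 143 with the control siRNA. Both TSA arrays were below all 4 controls, replicate 2 narrowly, at −1.37 from DMSO (SE 0.35, limma adjusted p = 1.00). DDIT4, an inhibitor of mTOR signalling, gave 601 and 298 with TSA, 1046 and 585 with DMSO, and 328 and 367 with the control siRNA. Its TSA and DMSO groups overlapped, although TSA was lower in both replicate numbers (−0.77 and −0.92). ATF4 itself differed by −0.47 (95% interval −1.04 to 0.09). Chaperones of the endoplasmic reticulum gave no common sign: HSPA5 had 0.13 (−0.47 to 0.72), HSP90B1 −0.23 and DNAJB9 0.11, and the stress factor DDIT3 had −0.08.

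The promoters of ASNS and CHAC1 are shown because they carry the letters TGATGNAA, the core of the C/EBP-ATF response element, which capitals mark. ASNS lies at chr7:97872359-97872658 on the minus strand, with TGATGAAA starting 68 bases before the gene start. CHAC1 lies at chr15:40953221-40953520 on the plus strand, with the match on the opposite strand, read as TTGCATCA, 209 bases before the start.
ASNS: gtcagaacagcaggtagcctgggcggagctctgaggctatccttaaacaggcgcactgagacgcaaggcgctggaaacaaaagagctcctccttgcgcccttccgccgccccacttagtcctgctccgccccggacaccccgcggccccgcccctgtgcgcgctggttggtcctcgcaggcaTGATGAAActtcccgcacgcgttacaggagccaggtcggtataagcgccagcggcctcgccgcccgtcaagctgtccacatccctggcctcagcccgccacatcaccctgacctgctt
CHAC1: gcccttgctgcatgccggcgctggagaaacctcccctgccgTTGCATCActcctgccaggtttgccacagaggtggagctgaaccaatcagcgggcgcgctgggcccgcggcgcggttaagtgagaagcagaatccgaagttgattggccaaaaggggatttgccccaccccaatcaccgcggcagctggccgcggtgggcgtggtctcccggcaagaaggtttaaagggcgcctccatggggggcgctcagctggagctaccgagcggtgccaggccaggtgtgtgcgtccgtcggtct

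Of the 29 ATF4 list genes with a promoter in the table, 5 held TGATGNAA on either strand (17.2%): ASNS, ATF3, CHAC1, HERPUD1 and SLC3A2. The share was 1.90% of tested genes and 3.67% of all promoters, and 0 of 26 sterol promoters held it. Of these 5, ATF3 and SLC3A2 had small differences (−0.13 and −0.16) and HERPUD1 had −0.65. The plot of both lists shows the DMSO circles to the right of the other symbols in the upper rows.

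**Figure D3:**
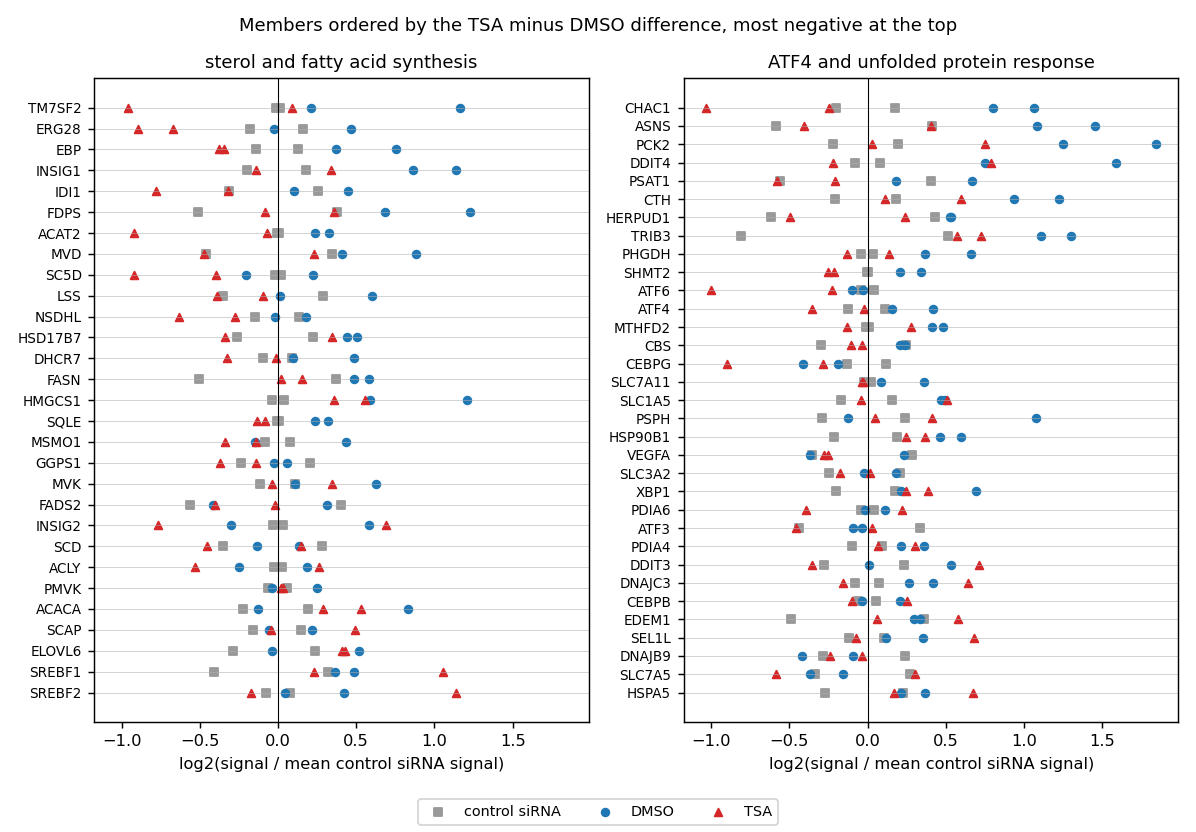
Each row is a gene of the sterol list (left, 29 genes) or the ATF4 list (right, 33 genes), and each point is 1 array as log2 of its signal over the mean control siRNA signal, with TSA as triangles, DMSO as circles and control siRNA as squares. Rows run from the most negative TSA minus DMSO difference, TM7SF2 (−1.10) and CHAC1 (−1.37), to the most positive, SREBF2 (0.25) and HSPA5 (0.13); for ERG28 the triangles lie left of all controls, and for ASNS they lie within the range of the squares.

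Genes known to answer deacetylase inhibitors were listed without an expected direction for each, so their signs alone cannot show whether that answer occurred. Of 19 tested, 12 differences were positive, against 53.7% of all genes, and 7 negative. At an unadjusted limma p under 0.05 stood 0, and the median was 0.08 (all genes 0.03). The count of higher members was 2 without TSA replicate 2 and 1 without DMSO replicate 2 or control siRNA replicate 2, and 1 member was lower without TSA replicate 1. With a replicate block 2 were higher. CDKN1A gave 555 and 645 with TSA, 409 and 445 with DMSO, and 457 and 743 with the control siRNA. Both TSA arrays were above both DMSO arrays, by 0.46 (95% interval −0.16 to 1.08), but within the range of the control siRNA. DHRS2, a reductase that deacetylase inhibitors induce in many lines, gave 139 and 80.6 with TSA, 49.6 and 47.7 with DMSO, and 99.8 and 36.2 with the control siRNA. Its difference of 0.84 (−0.10 to 1.77) was the highest of the list, and the control siRNA array of replicate 1 lay between the TSA arrays. CRABP2, a retinoic acid carrier, with 118 and 129 against 85.0 and 78.1 with DMSO and 73.0 and 95.2 with the control siRNA, was the only member outside all 4 controls.

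Other members went either way. TXNIP, the thioredoxin inhibitor, gave 1854 and 381 with TSA against 1729 and 866 with DMSO, a difference of 0.10 in replicate 1 and −1.13 in replicate 2. GLRX had −1.03 and 0.23, MT1X −0.77 and 0.45, and CLU 0.64 and −0.35. MYC was level at 2712 and 2578 against 2695 and 2637 (−0.01, interval −0.49 to 0.46), and TYMS, the thymidylate synthase, had 0.13 (−0.31 to 0.58). KLF4 was below the filter and not tested, at 6.87 and 9.95 with TSA and 43.0 and 30.8 with DMSO.

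**Figure D4:**
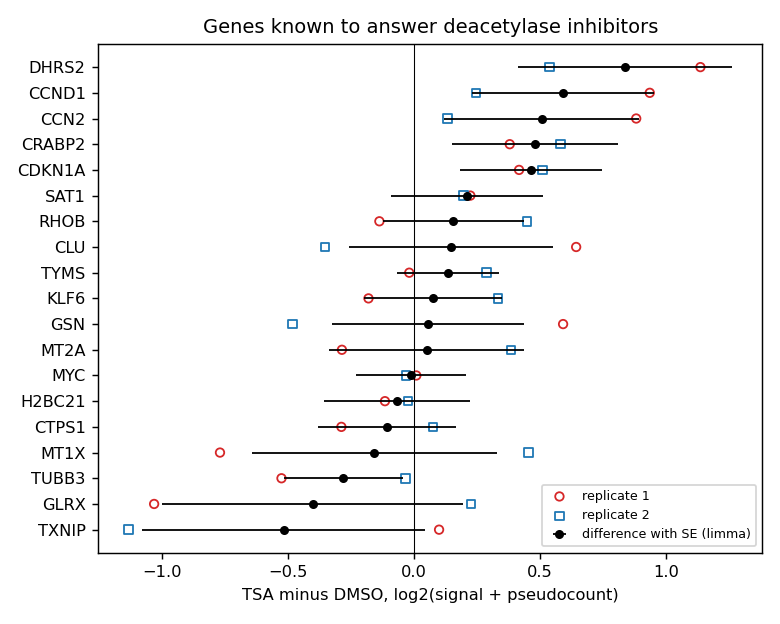
Rows are the 19 tested genes known to answer deacetylase inhibitors, and the x axis is the TSA minus DMSO difference on the log2(signal + pseudocount) scale. Filled points with bars give the limma difference and its SE, open circles replicate 1 and open squares replicate 2. DHRS2 is at 0.84 and TXNIP at −0.52. Both replicates are positive for 6 genes and negative for 2. For the others, TXNIP, CLU, GSN, MT1X and GLRX among them, they lie on opposite sides of 0.

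The deacetylases themselves showed no difference that passed the test. Of 15 deacetylases and sirtuins tested, 0 had an unadjusted limma p under 0.05 (1 lower without either TSA array), and the median difference was 0.05. HDAC1 gave 4661 and 3596 with TSA, 4391 and 3575 with DMSO, and 3364 and 2568 with the control siRNA. HDAC2 gave 3074 and 2769 with TSA, 2175 and 2515 with DMSO, and 2827 and 2320 with the control siRNA. HDAC1 overlapped with DMSO (0.05, interval −0.51 to 0.60), while HDAC2 lay above DMSO (0.32, −0.20 to 0.83) and overlapped with the control siRNA. HDAC3, HDAC4, HDAC5, HDAC7 and HDAC9 differed by 0.03, 0.16, 0.20, 0.43 and 0.19, and HDAC6, the tubulin deacetylase, by −0.20. The signs of HDAC1 and HDAC3 turned when each array was scaled to the same median (−0.03 and −0.04). HDAC11 was below the filter.

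Subunits of deacetylase complexes (20 tested, median 0.08) and acetyltransferases with bromodomain proteins (20 tested, median 0.12) likewise held 0 members at an unadjusted limma p under 0.05. Leaving out single arrays gave at most 1 member in either direction: 1 higher subunit without TSA replicate 2 or DMSO replicate 2, 1 lower subunit without TSA replicate 2, and 1 higher acetyltransferase list gene without DMSO replicate 2 or either control siRNA array. EP300, an acetyltransferase, gave 505 and 493 with TSA, 281 and 351 with DMSO, and 247 and 596 with the control siRNA. MTA1, a subunit of the NuRD complex, gave 2080 and 1614 with TSA, 1521 and 1342 with DMSO, and 1180 and 1107 with the control siRNA. It was above all 4 controls at a difference of 0.35, but its dimmer probe set gave −0.11. Histone genes were mixed, with 11 of 19 positive (53.7% of all genes) and 1 higher at an unadjusted limma p under 0.05 (1.27% of all genes). That was H4C8 (76.0 and 91.5 with TSA, 42.5 and 28.8 with DMSO, 66.9 and 59.5 with the control siRNA), and the count was 0 without TSA replicate 2 or either DMSO array. H2BC9 and H2AC6 had 0.93 and 0.63, H4C11 −0.94, and probe sets of near-identical histone genes can share signal.

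Cell cycle genes stayed close to DMSO as groups, beside 1.27% higher and 1.34% lower over all genes at an unadjusted limma p under 0.05. DNA replication genes (33 tested) had a median of 0.01, with 0 at an unadjusted limma p under 0.05 (2 higher without DMSO replicate 2, and 1 higher and 1 lower without TSA replicate 2), and mitosis genes (30 tested) had a median of 0.05, with 1 lower. That was PTTG1, the securin that guards sister chromatids, with 2317 and 3659 with TSA, 5697 and 4389 with DMSO, and 4951 and 4292 with the control siRNA. Most of its difference of −0.77 came from replicate 1 (−1.29 against −0.26), and the count was 0 without TSA replicate 1 or DMSO replicate 1. CCND1, cyclin D1, gave 7860 and 9621 with TSA against 4096 and 8113 with DMSO and 7186 and 13926 with the control siRNA, so its groups overlapped. The proliferation factor PCNA differed by 0.03 (interval −0.47 to 0.53).

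In the p53 and CDK inhibitor list 1 of 14 genes stood lower at an unadjusted limma p under 0.05. For this list and the apoptosis list below, the shares over all genes were 1.27% higher and 1.34% lower. GADD45A, a stress gene of p53 and ATF4, gave 359 and 484 with TSA, 607 and 790 with DMSO, and 724 and 811 with the control siRNA, and both TSA arrays lay below all controls (−0.72 and −0.68 by replicate number). Without DMSO replicate 2 the count was 0, and without TSA replicate 2 another gene stood higher. CDKN1B, the inhibitor p27, gave 2176 and 977 with TSA against 854 and 1003 with DMSO, a difference of 1.32 in replicate 1 and −0.04 in replicate 2. Of 27 apoptosis genes, 1 stood higher and 0 lower (2 lower without TSA replicate 2, and 1 without TSA replicate 1 or DMSO replicate 2). TNFRSF21, a death receptor, gave 1341 and 1026 with TSA, 835 and 668 with DMSO, and 842 and 671 with the control siRNA, with both controls alike, and that count was 0 without TSA replicate 1 or DMSO replicate 2. MCL1, a survival factor, gave 1834 and 1882 with TSA, 1363 and 1377 with DMSO, and 1653 and 1706 with the control siRNA. The BH3-only genes differed in sign, with BCL2L11 at 0.92 and BID, BAD and PMAIP1 at −0.52, −0.53 and −0.55.

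Immediate early genes held 3 higher members at an unadjusted limma p under 0.05 among 24 tested (12.5%, against 1.27% of all genes), with a median of 0.16. This count was 0 without DMSO replicate 1. JUN, a subunit of AP-1, gave 270 and 388 with TSA, 138 and 196 with DMSO, and 331 and 227 with the control siRNA. It was above DMSO by 0.88 (SE 0.30) and overlapped with the control siRNA. IER2 gave 3501 and 3204 with TSA, 2202 and 2103 with DMSO, and 2601 and 1647 with the control siRNA. IER5 gave 1249 and 1220 with TSA, 709 and 846 with DMSO, and 863 and 1007 with the control siRNA. Both lay above all 4 controls. Other members did not follow: FOS had −0.45, FOSL2 −0.85, and EGR1 0.71 with TSA arrays at 435 and 1032.

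Known EWS/FLI targets were taken as activated and repressed genes. Of 32 tested genes that the fusion activates, 4 stood lower at an unadjusted limma p under 0.05 (12.5%, against 1.34% of all genes) and 0 higher, with a median of −0.02, and the count was 2 without either DMSO array and 1 without TSA replicate 2. Beside PPP1R1A these were FCGRT, the antibody receptor, NPY1R, a neuropeptide receptor, and GSTM4, a glutathione transferase. FCGRT gave 2167 and 1816 with TSA, 3864 and 2845 with DMSO, and 4017 and 3102 with the control siRNA. NPY1R gave 1120 and 817 with TSA, 1419 and 1984 with DMSO, and 1214 and 1599 with the control siRNA. GSTM4 gave 2014 and 1619 with TSA, 2708 and 2460 with DMSO, and 2394 and 2543 with the control siRNA. All 4 genes had both TSA arrays below every control, whereas NKX2-2, CD99, PRKCB and CAV1 had differences of −0.09, −0.13, 0.02 and 0.09.

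Of 36 genes that the fusion represses, 3 stood higher at an unadjusted limma p under 0.05 (8.33%, against 1.27% of all genes) and 0 lower. Their median was 0.23, with 0.39 in replicate 1 and 0.02 in replicate 2. The difference was positive in 28 of the 36, as in 53.7% of all genes, and 7 had both TSA arrays above all 4 controls, as in 7.82% of all genes. The count was 0 without DMSO replicate 1, 1 without TSA replicate 1 or DMSO replicate 2, and 6 without TSA replicate 2. FN1, fibronectin, gave 19832 and 17959 with TSA, 13378 and 13749 with DMSO, and 11915 and 9719 with the control siRNA. TGFBI, a matrix protein induced by TGF-beta, gave 5424 and 4700 with TSA, 3180 and 3709 with DMSO, and 3073 and 2449 with the control siRNA. EMP1, a membrane protein, gave 395 and 296 with TSA, 113 and 243 with DMSO, and 175 and 62.7 with the control siRNA. All 3 were above every control on these probe sets. For EMP1 the difference was 1.60 in replicate 1 and 0.26 in replicate 2. Its further probe sets gave 0.50 and 0.05 and did not lie above every control. The collagens differed between the replicate numbers. COL3A1 had 1.35 and −0.47, COL5A1 0.95 and −0.16, and COL1A2 0.68 and −0.59, beside the fibroblast marker sum given above, while COL5A2 had 0.98 and 0.01 and COL1A1 0.35 and 0.11.

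Neuronal genes, which can mark differentiation of Ewing cells, had the same imbalance between replicate numbers. Among 38 tested, 2 stood higher at an unadjusted limma p under 0.05 (1.27% of all genes) and 1 lower (1.34% of all genes), and the median of 0.18 was 0.40 in replicate 1 and −0.01 in replicate 2. Without DMSO replicate 1 the median was −0.17, and the count of higher genes was 1 there, 4 without DMSO replicate 2 and 5 without TSA replicate 2. SOX11, a neural transcription factor, gave 810 and 1219 with TSA, 403 and 631 with DMSO, and 490 and 548 with the control siRNA. This probe set was alike in both replicate numbers (0.96 and 0.92). The further SOX11 probe sets gave 0.23 and 0.38, and in both the TSA and DMSO arrays overlapped. NGFR, the p75 neurotrophin receptor, gave 54.8 and 125 with TSA, 152 and 274 with DMSO, and 356 and 330 with the control siRNA. It stood below all controls, and DMSO was already below the control siRNA. UCHL1, a neuronal ubiquitin hydrolase, gave 5225 and 8748 with TSA, 12391 and 11358 with DMSO, and 9036 and 3909 with the control siRNA. Neurofilament genes NEFL and NEFM had 0.68 and 0.48, with 1.13 and 0.66 in replicate 1 against 0.22 and 0.30 in replicate 2.

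Chromatin repressors of the Polycomb group were covered by 20 tested genes, with a median of 0.16. Of these, 1 was higher at an unadjusted limma p under 0.05 (1.27% of all genes). PHC1, a subunit of the PRC1 complex, gave 818 and 711 with TSA, 530 and 482 with DMSO, and 467 and 495 with the control siRNA. It was above all controls, but the count was 0 without TSA replicate 1 or any 1 of the 4 control arrays. EZH2, the methyltransferase of PRC2, gave 1257 and 1055 with TSA, 990 and 861 with DMSO, and 1130 and 1172 with the control siRNA, so TSA was above DMSO and overlapped with the control siRNA. Of 20 HOX genes, 1 stood lower (1.34% of all genes). That was HOXC10, with 866 and 826 with TSA, 1208 and 1420 with DMSO, and 825 and 690 with the control siRNA, and the count was 0 without TSA replicate 2 or DMSO replicate 2. Of 25 potassium channel genes, 2 stood higher and 1 lower, against 1.27% and 1.34% of all genes. Beside KCNJ5 these were KCNE4, a channel subunit (1334 and 1026 with TSA, 677 and 834 with DMSO), and KCNMA1, the large-conductance calcium-activated channel (25.1 and 43.8 with TSA, 94.8 and 119 with DMSO). The other KCNMA1 probe sets were dimmer and gave 0.55 and 0.48, opposite in sign to its −1.16.

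The plot of list medians puts these groups side by side. The sterol and ATF4 lists were the ones with the most negative medians, and both replicate numbers lay on the same side there. The potassium channel, fusion-repressed and neuronal lists had the most positive medians, and in each of them replicate 2 lay close to 0 (−0.02, 0.02 and −0.01).

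**Figure D5:**
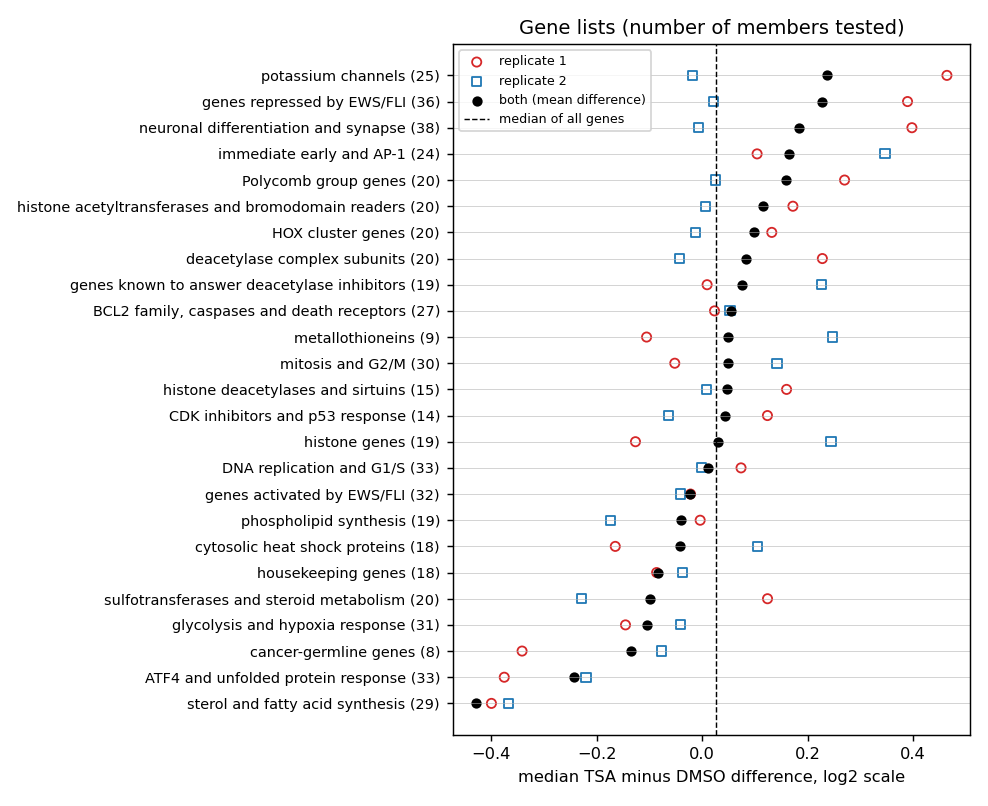
Rows are the 25 gene lists with the number of members tested in brackets, and the x axis is the median TSA minus DMSO difference on the log2(signal + pseudocount) scale. Filled points give the median of the mean difference, open circles replicate 1, open squares replicate 2, and the dashed line the median of all genes (0.03); the sterol list lies at −0.43 with both replicates beside it, and the potassium channel list at 0.24 with replicates at 0.46 and −0.02.

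Metallothioneins, the metal-binding proteins that zinc induces, set the control siRNA arrays apart from the TSA and DMSO arrays, and not TSA from DMSO. Transfection and hours of treatment both differ there, so their effects cannot be told apart. Of 9 list genes tested, 0 had an unadjusted limma p under 0.05 against DMSO and the median was 0.05, but the median was −1.63 with TSA and −1.65 with DMSO against the control siRNA. Both DMSO arrays lay below both control siRNA arrays in 7 of the 9, as in 12.9% of all genes. MT1E gave 245 and 644 with TSA, 250 and 430 with DMSO, and 3012 and 907 with the control siRNA. The zinc exporter SLC30A1 gave 53.3 and 118 with TSA, 18.5 and 193 with DMSO, and 655 and 305 with the control siRNA. In both genes the control siRNA arrays were the highest, with replicate 1 far above replicate 2. Over all genes 556 stood at an unadjusted limma p under 0.05 for TSA against the control siRNA (6.11%), 399 of them higher (4.38%) and 157 lower (1.73%), and 418 for DMSO against it (4.59%), 310 of them higher (3.41%) and 108 lower (1.19%). These comparisons share arrays with each other and with the comparison of TSA with DMSO. The numbers at an adjusted p under 0.05 were 0 and 0, and the first count was 318 without TSA replicate 1 and 1209 without TSA replicate 2, while the second was 224 without DMSO replicate 1.

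Stress, energy and membrane lipid genes gave single members, beside 1.27% higher and 1.34% lower over all genes at an unadjusted limma p under 0.05. HSPB1, the small heat shock protein, gave 4034 and 5770 with TSA, 7507 and 6458 with DMSO, and 7389 and 6868 with the control siRNA, and it was the 1 lower gene of 18 at an unadjusted limma p under 0.05, and 0 were left without any 1 of the 4 control arrays. HSPH1, a large heat shock protein, went the other way, at 3887 and 5578 with TSA against 3299 and 3100 with DMSO. Its TSA arrays lay on either side of both control siRNA arrays (5263 and 4704). In the glycolysis and hypoxia list (31 tested, median −0.10) FAM162A stood lower and ADM, adrenomedullin, higher. ADM gave 393 and 360 with TSA, 211 and 247 with DMSO, and 305 and 436 with the control siRNA. In the phospholipid list (19 tested) PCYT2 stood lower and AGPAT4, an acyltransferase, higher. AGPAT4 gave 104 and 125 with TSA, 56.8 and 20.7 with DMSO, and 18.3 and 90.9 with the control siRNA. The higher counts of these lists were 0 without TSA replicate 1 or DMSO replicate 2. CHPT1, the last enzyme of the choline branch, gave 656 and 910 with TSA, 1054 and 1278 with DMSO, and 1399 and 1029 with the control siRNA, below all controls at −0.57 (95% interval −1.16 to 0.02). Of 18 housekeeping genes, 0 had an unadjusted limma p under 0.05, and their median was −0.08.

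The EZH2 siRNA arrays allowed a comparison that shares no array with TSA against DMSO. EZH2 siRNA no.2 (5 nM, 48 hours, 2 arrays) was set against the control siRNA, and 127 genes were higher (1.40%) and 39 lower (0.429%) by at least 2-fold without overlap. At an unadjusted limma p under 0.05 stood 520 genes (5.71%), 360 higher (3.96%) and 160 lower (1.76%), and 0 at an adjusted p under 0.05. Higher in both comparisons were 5 genes, which is 14.3% of the 35 TSA genes and 3.94% of the 127 siRNA genes: ARHGEF28, GAP43, HSD17B3, HTR1E and SMR3B. Lower in both were 6, which is 19.4% of the 31 TSA genes and 15.4% of the 39 siRNA genes: GSTT1, NDUFB11, NGFR, PPP1R1A, RIDA and VWA5A. Opposite directions were seen for 1 gene, OPRK1. The overlap was not tested, and EZH2 itself was not lower with TSA.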

How the data were processed

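Total RNA of 9 A673 samples was measured on a human Affymetrix expression array, of which 4 arrays form the comparison described. The authors deposited 1 intensity per probe set and array, made with MAS5 per the submitters' processing notes (the sources used here give no version or scaling), and the trimmed means of all arrays were equal. From these, control probe sets were left out and log2(signal + 25.1) was taken, with the 20th percentile as the pseudocount. Probe sets with a mean under the 30th percentile (53.3) were dropped, and the brightest probe set naming exactly 1 gene stood for each gene, which left 9100 genes. limma 3.58.1 (R 4.3.3) fitted means of 5 groups on all 9 arrays with a trend, followed by Benjamini-Hochberg adjustment over all genes. The model was tested on simulated data.

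Genes were named by rule: the 12 higher and 12 lower genes of lowest p that differed at least 2-fold and lay outside all 4 control arrays, 5 each way that differed from DMSO only, list members at an unadjusted p under 0.05 and genes listed by role. Other genes were named from the lists after their values were seen. The members and lists were chosen with earlier results of these data known. Shares of list members set beside those of all genes are therefore descriptions and not tests. The searches for TGATGNAA and TCACNCCAC were added after the data were seen.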

Additional observations from a re-analysis of the deposited data

How the results depend on the processing

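The count at an adjusted limma p under 0.05 stayed at 0 in all 18 alternatives for TSA against DMSO, and the lowest adjusted p was 0.414, without TSA replicate 2. Of 1597 values for 90 named genes, 1578 kept their sign and 19 did not; the cause was not tested. Counts that follow give genes at an unadjusted p under 0.05, then those at least 2-fold outside both DMSO arrays and outside all 4 controls. A pseudocount at the 5th percentile gave 81 higher and 59 lower outside DMSO and 47 and 28 outside all controls, and one at the 40th percentile gave 5 and 9, then 4 and 5, since the pseudocount shrinks dim differences. No filter gave 379 genes (186 higher, 193 lower), with 64 and 51 outside DMSO and 42 higher outside all controls. A filter at the 50th percentile gave 76 higher, with 9 and 18 outside DMSO and 8 and 10 outside all controls, from fewer genes. Every probe set gave 62 higher outside DMSO and 37 outside all controls. Scaling to the same median gave 66 higher, 15 higher outside all controls, HDAC1 at −0.0308 and HDAC3 at −0.0416. The mean of DMSO and control siRNA as control gave 370 genes, 219 of them higher, and MT1E at −0.86.

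Deviations of same-numbered arrays correlated at 0.338 for TSA and DMSO, 0.0529 for TSA and control siRNA, and 0.220 to 0.377 for the other 4 pairs of groups. With only 2 numbers per group and no label that explains them, no pairing is established. With the replicate number as a block the counts were 414 genes (210 higher, 204 lower), 881 for TSA against control siRNA and 668 for DMSO against control siRNA.

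Leaving out 1 array at a time (control siRNA arrays were added after the data were seen) gave 106 to 759 genes (62 to 310 higher, 44 to 449 lower), 35 to 228 higher and 31 to 200 lower outside DMSO, and 27 to 147 higher and 19 to 179 lower outside all controls. Against the control siRNA the ranges were 318 to 1209 for TSA and 224 to 519 for DMSO. Once 1 array is left out, fewer arrays have to lie apart. The counts outside DMSO and outside all controls are then looser than the main ones and not comparable with them. Signs turned for HDAC1 (−0.14 to 0.23), HDAC3 (−0.24 to 0.31), HDAC4 (−0.0758 to 0.39), HDAC5 (−0.21 to 0.60), HDAC6 (−0.42 to 0.0164), HDAC7 (−0.23 to 1.09), HDAC9 (−0.12 to 0.49), MTF1 (−0.41 to 0.87) and MT1E (−0.39 to 0.92). Arrays of 2 against 2 and signal near background limit the dim genes: the median SE was 0.40 among the 2275 dimmest genes and 0.27 among the 2275 brightest.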

Other observations

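A pair of lists belongs to no comparison above. Sulfotransferases and steroid enzymes (20 tested) had 1 higher member at an unadjusted limma p under 0.05 (1.27% of all genes), SULT1E1. Their median was −0.10, with 0.12 in replicate 1 and −0.23 in replicate 2. HSD17B3, a testosterone-forming dehydrogenase, gave 127 and 93.4 with TSA, 65.8 and 20.5 with DMSO, and 14.4 and 24.3 with the control siRNA, so both TSA arrays lay above all controls. HSD17B2, which works in the opposite direction, gave 114 and 120.0 with TSA, 221 and 163 with DMSO, and 314 and 558 with the control siRNA, below all controls. STS, the steroid sulfatase, gave 113 and 111 with TSA against 50.9 and 104 with DMSO.

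Cancer-germline genes, which are silent in most adult tissues and often open on loss of DNA methylation, had a median of −0.13. Of 8 tested, 1 was higher (1.27% of all genes), MAGEC1. SSX1 gave 675 and 708 with TSA, 883 and 813 with DMSO, and 576 and 722 with the control siRNA. PRAME gave 185 and 70.7 with TSA against 88.3 and 98.5 with DMSO, so its TSA arrays lay on either side of both DMSO arrays. Of 22 such genes on the array, the other 14 were below the signal filter.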
